A study of Mus musculus with 16 samples.

Results

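Celiac ganglia of 2-week-old Th-MYCN homozygous mice labelled Runx1t1 heterozygote were compared with ganglia of the same age and transgene dose labelled Runx1t1 wild type. The members were taken by the genotype in their labels and gave 5 of the 16 RNA-Seq libraries of the series, 2 het-labelled (replicates 1 and 2) and 3 wild-type-labelled (replicates 1, 3 and 4), and all 24411 genes of the mouse gene table were looked at. Both groups carried the human MYCN transgene on both alleles, which in this line (Tg(Th-MYCN)41Waw, on a 129/SvJ background) is driven by the tyrosine hydroxylase promoter and so acts in cells of the sympathetic lineage. By their labels the het mice had 1 functional Runx1t1 allele, the other being inactivated by an insertion (the CBB6-Runx1t1tm1Fc/H line, crossed in), and the wild-type mice had 2, where Hom in the table's header was taken, after the matching labels, to mean homozygous for the normal allele. The other 11 libraries were 7 celiac ganglia of the same age without the transgene (4 Runx1t1 wild-type and 3 het-labelled) and 4 tumors from transgene homozygotes that were Runx1t1 wild type. The comparison addressed whether removing 1 copy of Runx1t1 alters RNA levels in the ganglia in which neuroblastoma of this model starts, before tumors are present.

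Runx1t1 (also known as Mtg8 or Eto) is a transcriptional corepressor: it does not bind DNA by itself but is brought to it by factors such as the E proteins, and it recruits histone deacetylases. Celiac ganglia are sympathetic ganglia, whose noradrenergic neurons are surrounded by satellite glia. In Th-MYCN mice, clusters of dividing neuroblasts that would normally be lost after birth persist in these ganglia as hyperplasia, and neuroblastoma arises from them.

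The libraries of the het-labelled ganglia held 14221960 and 12367963 counts and those of the wild-type-labelled ganglia 11240429, 24873952 and 35779888, so both het-labelled libraries and wild-type replicate 1 had fewer than 20000000 counts. Of the 5 MYCN ganglia, wild-type replicate 4 held more than 1 CPM (counts scaled to library size) of Ddx3y, a gene of the Y chromosome, and the other 4 did not, and the ribosomal RNA gene Rn45s took 2.79 to 3.06% of the counts in the het-labelled and 4.61 to 8.80% in the wild-type-labelled libraries. All 5 ganglia expressed the noradrenergic neuron genes Th and Dbh, although their cell type is given as neuroblastoma in the labels, like that of all samples; the label polyA RNA also differs from the total RNA library kit that the study used. The sources do not say beyond the replicate number that each library is a separate mouse, so the p-values below measure the spread between these samples.

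Runx1t1 RNA did not separate the groups. The gene, at chr4:13743436-13893649 (+ strand, GRCm38), was at 25.3 and 49.9 CPM in het-labelled replicates 1 and 2 and at 243, 23.4 and 111 CPM in wild-type-labelled replicates 1, 3 and 4. Wild-type replicate 3 was below both het-labelled ganglia, and wild-type replicates 1 and 4 were above them. The difference was −1.74 ± 0.66 on the log2 scale (SE; edgeR quasi-likelihood test, adjusted p = 0.350), and an exact two-sided permutation test on log2(CPM + 1) gave a difference of −1.26 with p = 0.50, where 2 against 3 libraries cannot go below 0.10. Without wild-type replicate 3 the fitted difference was −2.23 with an adjusted p of 0.0342, without wild-type replicate 1 it was −0.84 (0.819) and without het replicate 1 it was −1.35 (0.994). Without the transgene, the 3 het-labelled ganglia held 13.1 to 18.2 CPM (median 13.3) and the 4 wild-type-labelled ganglia 8.47 to 13.1 CPM (median 11.5), so the median of the het-labelled ones was not the lower one there (log2 difference 0.41, adjusted p = 0.993), and the 4 tumors 123 to 227 CPM. Because of this overlap the genotypes are written as labelled throughout. In the clustering that the paper describes, MYCN ganglia with normal Runx1t1 lay closer to tumors, and those with 1 functional copy joined the transgene-free ganglia. Whether wild-type replicate 3 carries the genotype of its label was not tested, and this touches every difference below and the calls made without that library.

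Of 16665 genes tested, 2 passed the adjusted threshold of 0.05, which is 0.012% of them, and both were higher in the het-labelled ganglia. The first was Tmed8 (chr12:87166237-87200454, − strand, GRCm38), which bears a TMED symbol. The p24 (TMED) proteins cycle between endoplasmic reticulum and Golgi, and whether Tmed8 acts as they do was not tested. Tmed8 was at 80.96 and 90.8 CPM in the het-labelled ganglia and at 38.98, 37.4 and 37.9 CPM in the wild-type-labelled ganglia, a fold of 2.25 (log2 fold change 1.17 ± 0.14 (SE), adjusted p = 0.0173). The 3 wild-type-labelled values lay within a few CPM of each other and far below both het-labelled values. Plxnc1 (chr10:94790866-94944835, − strand), a plexin that serves as receptor for semaphorin 7A in axon guidance, was at 203 and 148 CPM against 65.3, 75.4 and 70.6 CPM, a fold of 2.49 (log2 fold change 1.32 ± 0.18 (SE), adjusted p = 0.0448). Again no wild-type-labelled ganglion, replicate 3 included, came near the het-labelled ones. Genes that pass with so few libraries tend to have a small spread within groups, so these positions are partly fixed by the selection.

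Both calls depended on the libraries and on the covariates in the fit. The log2 fold change of Tmed8 stayed between 1.09 and 1.23, and that of Plxnc1 between 1.05 and 1.52, when any 1 of the 5 ganglia was left out. Without wild-type replicate 3 both passed (adjusted p = 0.0221 each), whereas without het replicate 1 or 2 or wild-type replicate 1 or 4 no gene passed, with adjusted p of 0.0763 to 0.249 for Tmed8 and 0.122 to 0.994 for Plxnc1. A term for library depth gave 0.112 and 0.181, and a term for sex 0.0614 and 0.0955, for Tmed8 and Plxnc1. With only the compared groups in the fit the values were 0.329 and 0.332, and with the replicate block 0.193 for each. Plxnc1 also missed the threshold with upper-quartile scaling (0.0658), with no filter (0.0634), without the tumors (0.0607) and without Rn45s (0.0702). DESeq2 on the same counts called 264 genes, 166 higher and 98 lower, with both genes among them, and 4 of the 264 had log2 fold changes beyond 15 in size. The fit by limma on log2(TPM + 1) also called both (adjusted p = 0.00822 for Tmed8 and 0.0202 for Plxnc1).

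Without adjustment, 858 genes (5.15% of those tested) were higher and 1236 (7.42%) were lower in the het-labelled ganglia at p under 0.05. In 2754 genes (16.5%) both het-labelled values lay above all 3 wild-type-labelled values, and in 2322 (13.9%) below them. The excess of lower genes turned with limma on log2(TPM + 1) (1446 higher, 712 lower), with only the compared groups in the fit (861 and 642), without wild-type replicate 1 (622 and 563) and without het replicate 1 (300 and 221). The median log2 fold change over all genes was −0.09. These shares are the background against which the counts of the gene lists below are read.

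**Figure D1:**
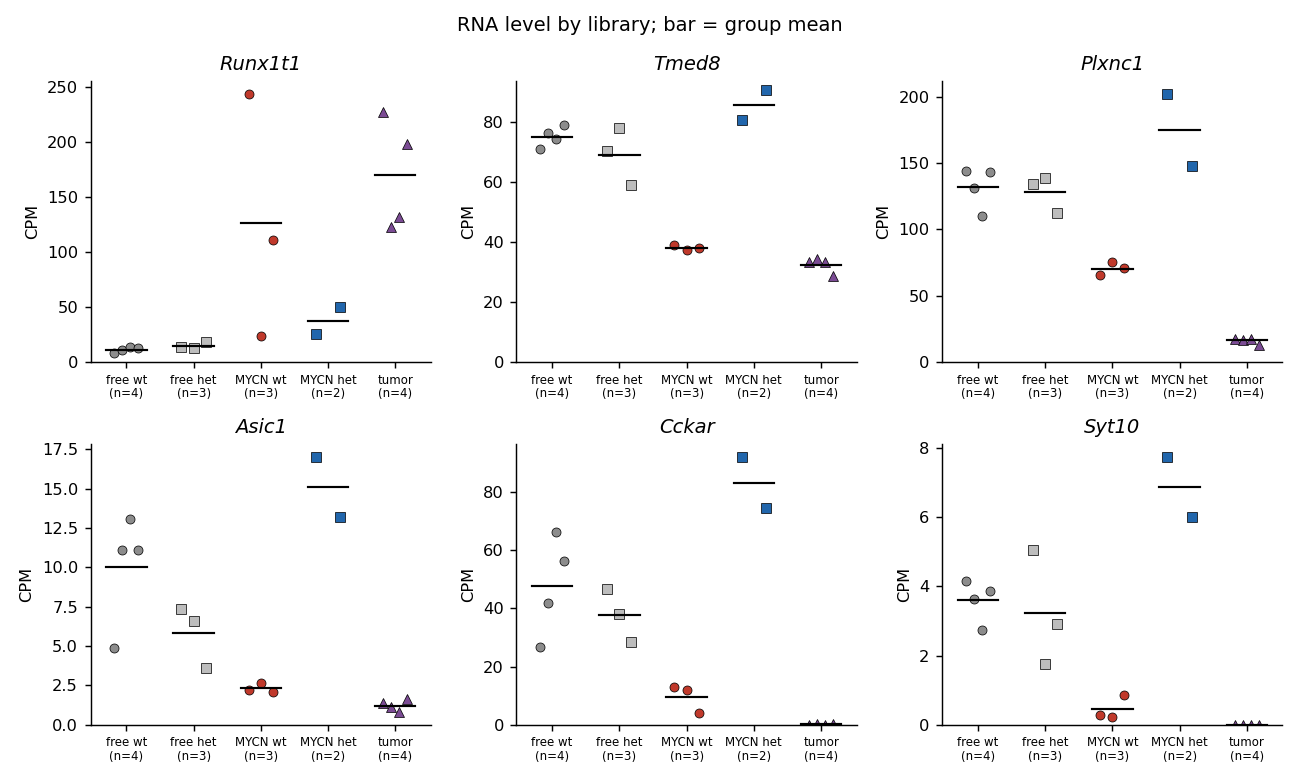
RNA level (CPM, y axes starting at 0) of Runx1t1 and of 5 genes from the head of the ranking by p, in each library of the 5 groups; free means without the MYCN transgene, points are libraries and bars are group means. Runx1t1 overlaps between the MYCN wild-type and MYCN het groups, whereas in Tmed8, Plxnc1, Asic1, Cckar and Syt10 both het-labelled MYCN ganglia lie above every wild-type-labelled MYCN ganglion and every tumor.

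The 10 genes with the smallest p among those that were higher without overlap (mean of at least 1 CPM) began with Tmed8 and Plxnc1. This way of choosing favors genes with a small spread, so the absence of overlap is part of the rule and no finding. The other 8 did not pass the adjusted threshold. Asic1, an acid-sensing sodium channel, was at 17.04 and 13.2 CPM in the het-labelled and 2.20, 2.63 and 2.07 CPM in the wild-type-labelled ganglia (log2 fold change 2.71 ± 0.44 (SE), adjusted p = 0.0770). Cckar, the cholecystokinin A receptor, was at 92.2 and 74.6 CPM against 12.8, 12.02 and 4.13 CPM (log2 fold change 3.12 ± 0.52 (SE), adjusted p = 0.0945). Syt10, a synaptotagmin of regulated secretion, was low throughout, at 7.74 and 6.02 CPM against 0.275, 0.229 and 0.852 CPM (log2 fold change 3.86 ± 0.66 (SE), adjusted p = 0.171). In these 3 genes each het-labelled ganglion held several times the level of any wild-type-labelled one. Amigo2, a leucine-rich repeat adhesion protein, was at 56.96 and 46.6 CPM against 18.3, 19.6 and 16.1 CPM (log2 fold change 1.53 ± 0.23 (SE), adjusted p = 0.0770). Gclc, the catalytic subunit of the enzyme that makes the precursor of glutathione, was at 215 and 213 CPM against 65.8, 72.6 and 48.6 CPM (log2 fold change 1.78 ± 0.31 (SE), adjusted p = 0.115). The remaining genes were Efr3a, which anchors a phosphatidylinositol kinase at the plasma membrane (log2 fold change 1.31, adjusted p = 0.0770), Nap1l5, an imprinted gene of the nucleosome assembly family (1.31, adjusted p = 0.119), and Bbx, an HMG-box protein (0.73, adjusted p = 0.171). Nap1l5 overlaps Herc3, Tmed8 overlaps Samd15 and Amigo2 overlaps Pced1b, each on the other strand, while Plxnc1 and Efr3a overlap small gene models on their own strand, so reads of these pairs may not be told apart.

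The 10 leading lower genes had adjusted p of 0.179 to 0.243 and none passed. Sfxn1, a mitochondrial serine transporter, was at 28.4 and 37.5 CPM in the het-labelled and 89.7, 51.5 and 70.02 CPM in the wild-type-labelled ganglia (log2 fold change −1.09 ± 0.21, SE). Ivd, an enzyme of leucine breakdown, was at 19.6 and 24 CPM against 40.7, 42.6 and 35.7 CPM (−0.86 ± 0.17). Aifm1, a mitochondrial flavoprotein with a part in cell death, was at 43.6 and 39.8 CPM against 83.6, 66.5 and 68.8 CPM (−0.81 ± 0.18). In Ivd and Aifm1, as in Tmed8 and Plxnc1, wild-type replicate 3 was close to the other wild-type-labelled ganglia. The lower genes too were chosen for a small p without overlap, so the side on which replicate 3 lay was fixed by the rule. Rnps1, a splicing factor, was at 61.3 and 71.7 CPM against 133, 101 and 146 CPM (−0.93 ± 0.19), and Rcl1, needed for ribosomal RNA maturation, at 11.6 and 12.3 CPM against 25.9, 17.6 and 26.03 CPM (−0.95 ± 0.20). Cenpi, a kinetochore component, was at 0.704 and 1.62 CPM against 13.6, 2.21 and 9.79 CPM (−2.87 ± 0.68), and here replicate 3 was close to het replicate 2. Xkr5, of the XK-related family, had the largest log2 difference of the 10, 0.282 and 0.154 CPM against 7.06, 1.11 and 4.00 CPM (−4.17 ± 0.89). The other 3 were Traf4, a signaling adaptor (−1.30), Ivns1abp, a kelch protein (−1.09), and Gm13363 (−0.77), which overlaps Etl4 on the same strand and so may share its reads.

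Within the 3 MYCN libraries under 20000000 counts, the difference in log2(CPM + 1) between both het-labelled ganglia and wild-type replicate 1 was 1.12 for Tmed8, 1.39 for Plxnc1, 2.32 for Asic1, 2.60 for Cckar and 1.69 for Gclc, against 1.15, 1.29, 2.28, 3.11 and 1.78 over all 5. It was −2.74 for Runx1t1, −2.79 for Cenpi and −2.73 for Xkr5, against −1.26, −1.91 and −1.85 over all 5. These within-depth values rest on 1 wild-type-labelled library and have no test, and apart from Runx1t1 their sign is fixed by the choice of genes without overlap.

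The leading genes were also set beside the transgene-free ganglia. In all 10 higher genes the 3 wild-type-labelled MYCN ganglia lay below every one of the 7 transgene-free ganglia, and in 8 of the 10 both het-labelled MYCN ganglia lay above every one of them, Amigo2 and Efr3a being the exceptions. Tmed8 ran from 59.1 to 79.03 CPM in the transgene-free ganglia and from 28.8 to 34.4 CPM in the tumors, and Plxnc1 from 109.9 to 144 and from 12.7 to 17.6 CPM. For Asic1 the transgene-free range was 3.61 to 13.1 CPM, for Cckar 26.7 to 66.3 CPM and for Gclc 118 to 196 CPM. The tumors held 0.785 to 1.60 CPM of Asic1 and 27.1 to 65.1 CPM of Gclc, and at most 0.0842 CPM of Cckar. In Tmed8, Plxnc1, Asic1 and Cckar the wild-type-labelled MYCN ganglia thus lay between the tumors and the transgene-free ganglia, and in Gclc they overlapped the tumors. In Bbx the tumors, at 81.8 to 102 CPM, lay above all 3 wild-type-labelled MYCN ganglia, at 68.9, 80.1 and 72.6 CPM. In 9 of the 10 lower genes the 3 wild-type-labelled MYCN ganglia lay above all 7 transgene-free ganglia, with Rcl1 the exception; the het-labelled ganglia lay below all 7 only in Rcl1. Since the genes were picked for a difference between the 2 MYCN groups, these positions are a description.

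**Figure D2:**
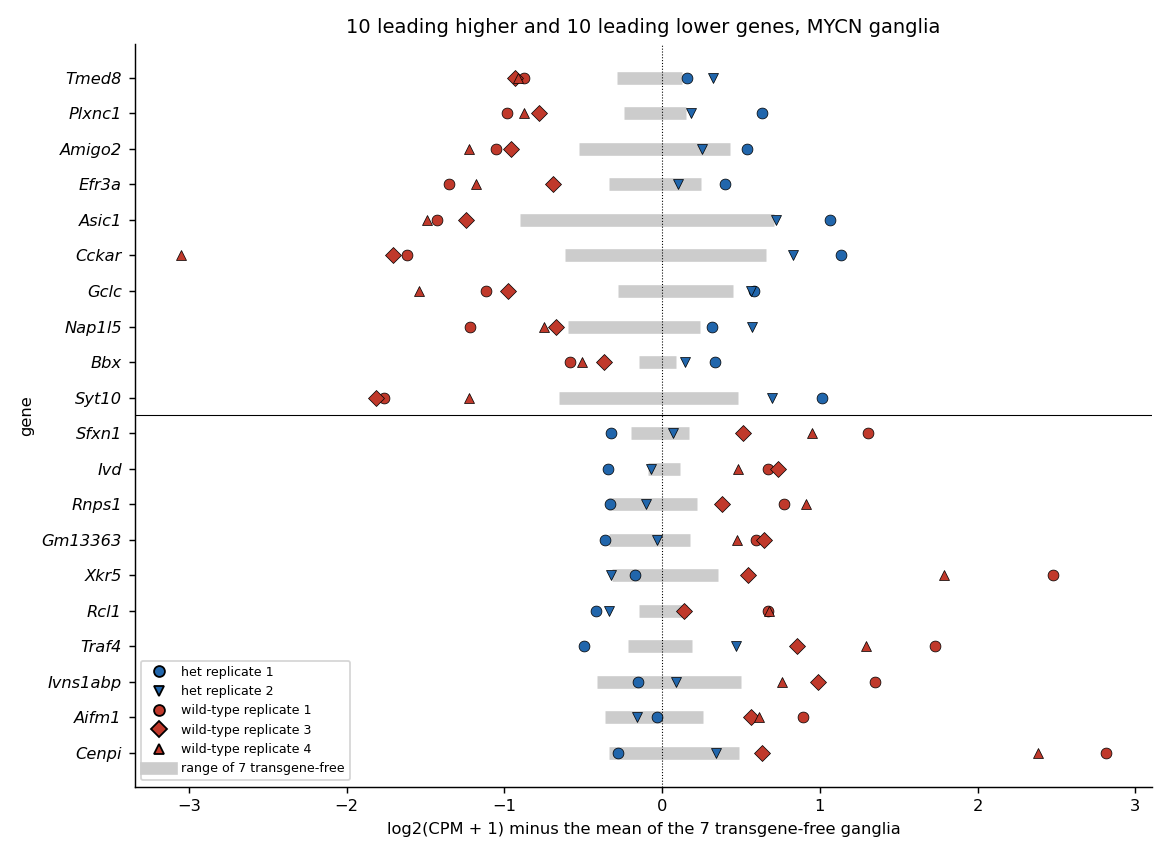
Level of the 10 leading higher (top) and 10 leading lower genes (bottom) in the 5 MYCN ganglia, as log2(CPM + 1) minus the mean of the 7 transgene-free ganglia; gray bars span those 7 ganglia, blue marks are het-labelled and red marks wild-type-labelled libraries. The wild-type-labelled ganglia lie below the gray bar in all 10 higher genes and above it in 9 of the 10 lower genes.

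Noradrenergic neuron genes were mostly at greater levels in the het-labelled ganglia. Of 14 markers of sympathetic neurons, 12 had a log2 fold change above 0, 5 were higher and none was lower at an unadjusted p under 0.05, and the median was 0.71 (all genes −0.09). Summed over these markers, TPM (levels corrected for transcript length and library size) came to 28100 and 23500 in the het-labelled and 9910, 17300 and 14400 in the wild-type-labelled ganglia, without overlap. The count of higher markers was 1 without het replicate 1, 2 without wild-type replicate 1 and 3 to 5 when another MYCN ganglion was left out, with medians of 0.45 to 0.91. Npy, the co-transmitter neuropeptide Y, was at 816 and 570.2 CPM against 170.1, 230.4 and 158 CPM (log2 fold change 1.90 ± 0.60 (SE), adjusted p = 0.300). In whole ganglia a smaller share of neurons and less RNA per neuron cannot be told apart.

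The genes of catecholamine synthesis, storage and breakdown lay on the same side. Of these 15 genes 14 were above 0 and 5 were higher at an unadjusted p under 0.05, with a median of 0.76. Without overlap 10 were higher and 1 was lower, where 16.5% of all genes were higher and 13.9% lower. Without het replicate 1, 1 was higher at that p, without het replicate 2 or wild-type replicate 1, 3 were, and with only the compared groups in the fit 8 were. Th, the rate-limiting enzyme of catecholamine synthesis, was at 1245 and 1131 CPM against 288, 818 and 467 CPM (log2 fold change 1.18 ± 0.50 (SE), adjusted p = 0.376). Dbh, which makes noradrenaline from dopamine, was at 3508 and 2306 CPM against 893, 1835 and 1379.8 CPM (1.09 ± 0.60 (SE), adjusted p = 0.465). For both genes wild-type replicate 3 was nearest to the het-labelled values yet still below them. The vesicular transporters Slc18a1 and Slc18a2 had log2 fold changes of 1.80 and 1.21, and Maoa, the monoamine oxidase that breaks catecholamines down, 1.11, all with adjusted p of 0.300 to 0.346.

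Of 27 genes of synaptic vesicle release, 10 were higher and none was lower at an unadjusted p under 0.05, 23 were above 0, and 21 were higher without overlap, against the 16.5% of all genes. The median was 0.64. Rab3c, a vesicle GTPase, was at 887 and 807 CPM against 331, 395 and 387 CPM (log2 fold change 1.19 ± 0.28 (SE), adjusted p = 0.243). Snap25, a SNARE protein of vesicle fusion, was at 601 and 683 CPM against 272, 454 and 450.4 CPM (0.71 ± 0.30 (SE), adjusted p = 0.376). Cplx2, complexin 2, was at 1990.1 and 1728 CPM against 669.6, 1599 and 981 CPM (0.78). The vesicle glycoprotein gene Sv2b was the 1 member that was lower without overlap, at 0.49 and 0.39 CPM against 1.19, 1.64 and 0.749 CPM (−1.43). When single ganglia were left out, the count of higher members ran from 4 (without het replicate 1) to 12 (without wild-type replicate 3).

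Of 23 structural genes of the axon, 2 were higher and 1 was lower at an unadjusted p under 0.05, with a median of 0.30. Without overlap 13 were higher, against 16.5% of all genes. Nefh, the heavy neurofilament subunit of mature large axons, was at 524 and 490.0 CPM against 183, 239 and 208 CPM (log2 fold change 1.27 ± 0.33 (SE), adjusted p = 0.256), and Map1a, a microtubule protein of mature neurons, had a log2 fold change of 1.02, adjusted p = 0.360. Stmn4, a microtubule-destabilizing stathmin, was the lower member at 46.3 and 63.7 CPM against 115, 92.1 and 126 CPM (−1.01, adjusted p = 0.355). Sncg and Uchl1, the most abundant members per length, had log2 fold changes of 0.65 and 0.43, neither past the threshold, and Stmn2 lay near 0 (−0.07).

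Receptors, channels and peptides showed a few leading members each. Among 17 neurotrophin and GDNF family genes, 1 was higher and 2 were lower at an unadjusted p under 0.05. Ngfr, the low-affinity neurotrophin receptor p75, was at 1738 and 1220.3 CPM against 383, 1027 and 857 CPM (log2 fold change 0.97 ± 0.54 (SE), adjusted p = 0.472). Gfra3, the artemin co-receptor of young sympathetic neurons, was at 58.6 and 80.6 CPM against 238, 102 and 196 CPM (−1.36, adjusted p = 0.381), and the neurotrophin Bdnf was at 2.39 and 8.64 CPM against 52.3, 2.94 and 16.8 CPM (−2.12, adjusted p = 0.392). Bdnf in wild-type replicate 3 was within the het-labelled range, whereas Gfra3 was not. Of 25 voltage-gated sodium and calcium channel genes, 3 were higher and none lower at an unadjusted p under 0.05 (median 0.23); Scn11a had a log2 fold change of 1.98, adjusted p = 0.262, Scn2b 0.86, adjusted p = 0.376 and the abundant Scn3b −0.33, adjusted p = 0.891. None of 13 cholinergic genes had an unadjusted p under 0.05 in either direction (median 0.45), the ganglionic nicotinic subunit Chrna3 being at 0.50 and acetylcholinesterase, Ache, at 1.17 on the log2 scale. Of 17 neuropeptide genes, Npy and Vgf were the 2 higher at an unadjusted p under 0.05; Vgf had 1.01, adjusted p = 0.319, the abundant Chga −0.65, adjusted p = 0.627 and Vip, at 0.774 and 6.10 CPM against 8.90, 12.1 and 47.8 CPM, −2.75, adjusted p = 0.474. The median of the peptide list was −0.05, close to that of all genes.

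Genes that share a symbol or family with the 2 genes that passed held few other differences. Of 9 tested genes with a Tmed symbol, Tmed8 alone had an unadjusted p under 0.05. The most abundant, Tmed2 and Tmed10, had log2 fold changes of −0.22 and −0.04, and the median was −0.04. Of 11 plexins and neuropilins, Plxnc1 was the 1 higher, and Plxna2 and the semaphorin co-receptor Nrp2 were the 2 lower at an unadjusted p under 0.05. Nrp2 was at 192 and 228 CPM against 606, 231 and 361 CPM (log2 fold change −0.93 ± 0.35 (SE), adjusted p = 0.355), Plxna2 had −1.27, adjusted p = 0.332 and the abundant Plxna4 0.40, adjusted p = 0.721. Among 20 semaphorins, the ligands of these receptors, 1 was lower (Sema6a, −0.97, adjusted p = 0.337) and none higher at an unadjusted p under 0.05, with Sema6d, the most abundant, at 0.33.

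**Figure D3:**
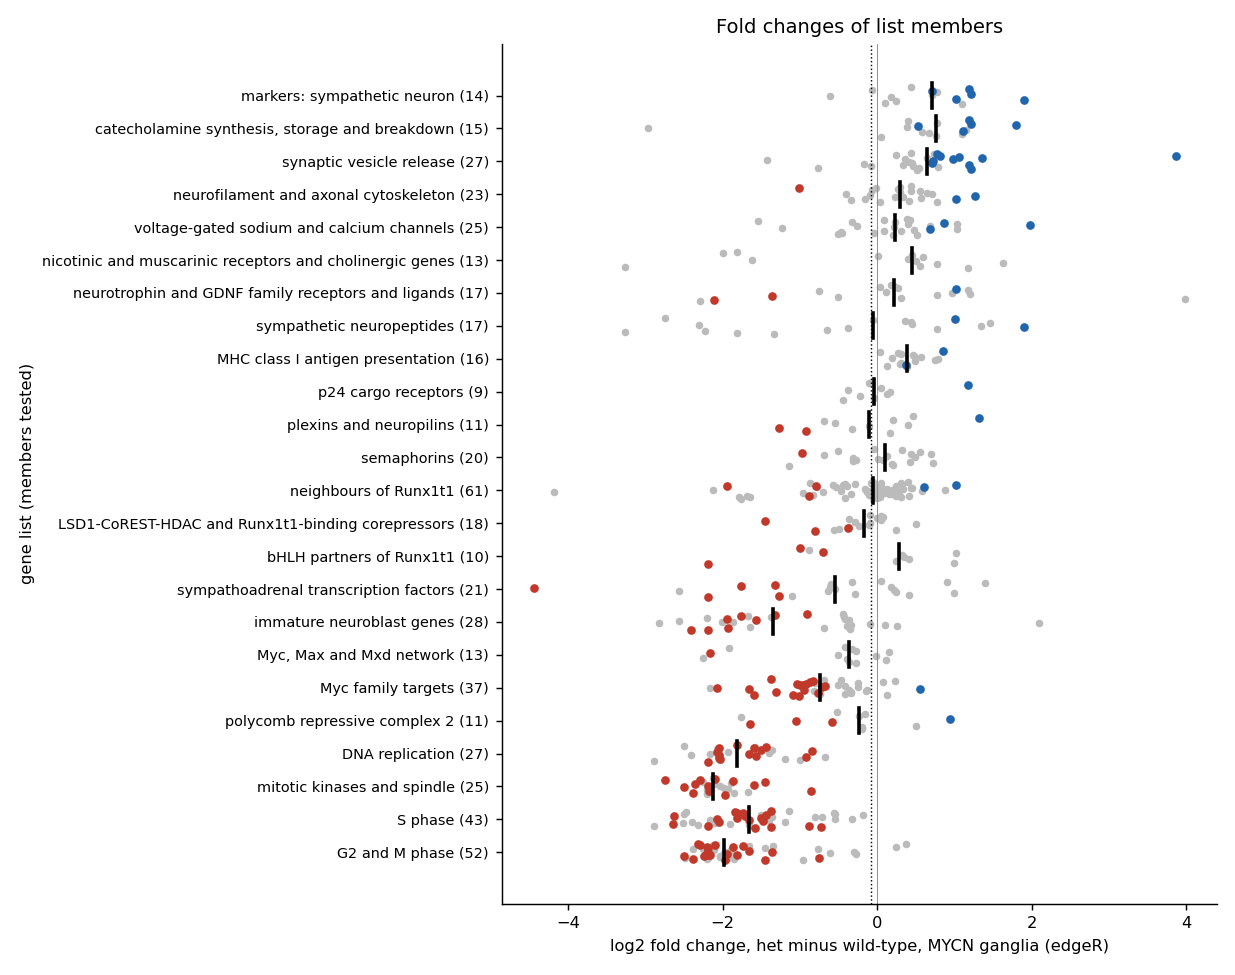
Log2 fold change, het-labelled minus wild-type-labelled MYCN ganglia, of each tested member of 24 gene lists; black bars are list medians, the dotted line is the median of all genes (−0.09), and blue and red points are members at an unadjusted p under 0.05. The medians run from 0.76 in the catecholamine list to −2.12 in the mitotic list; of the members shown, Tmed8 and Plxnc1 alone passed the adjusted threshold.

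Genes of immature neuroblasts lay on the other side. Of 28 tested, 25 were below 0, 8 were lower and none was higher at an unadjusted p under 0.05, and the median was −1.34, and 6 were lower without overlap (13.9% of all genes were). Dcx, the doublecortin of migrating neuroblasts, was at 47.03 and 121 CPM in the het-labelled and 518, 113 and 328 CPM in the wild-type-labelled ganglia (log2 fold change −1.93 ± 0.56 (SE), adjusted p = 0.284). Marcksl1, a regulator of actin in growing neurons, was at 72.9 and 143 CPM against 507, 155 and 302 CPM (−1.57 ± 0.44 (SE), adjusted p = 0.273). Stmn1, a stathmin of dividing and young neurons, was at 369 and 552 CPM against 1247, 452 and 900.2 CPM (−0.91, adjusted p = 0.370), while Tubb2b and Dpysl3 were at −0.45 and 0.26. Wild-type replicate 3 was within or next to the het-labelled range in Dcx, Marcksl1 and Stmn1. The number lower at an unadjusted p under 0.05 ran from 1 without het replicate 1 and 4 without wild-type replicate 1 to 14 without wild-type replicate 3. The median was −0.41 without wild-type replicate 1, −0.84 without het replicate 1 and −0.69 with limma on log2(TPM + 1).

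Transcription factors of the sympathoadrenal lineage were mixed. Of 21, 5 were lower and none was higher at an unadjusted p under 0.05, and the median was −0.55. Without overlap, 6 were higher and 4 lower, where 16.5% of all genes were higher and 13.9% lower. The count of lower factors was 1 without het replicate 1, 3 without het replicate 2 or wild-type replicate 1 (median −0.14 without the latter) and 7 without wild-type replicate 3, and with only the compared groups in the fit 3 were higher and 3 lower. Sox4, a factor of neural progenitors, was at 117 and 189 CPM against 616, 172 and 356 CPM (log2 fold change −1.32 ± 0.41 (SE), adjusted p = 0.300), and Ebf1, at 38.8 and 38.05 CPM against 101, 74.7 and 103 CPM (−1.27 ± 0.32 (SE), adjusted p = 0.247), was among those without overlap. Among the factors of noradrenergic identity, Hand2 was at 794 and 849 CPM against 753, 656 and 671 CPM (0.25 ± 0.33 (SE), adjusted p = 0.804) and Phox2a at 0.17. Among 10 bHLH factors listed as partners of Runx1t1, 3 were lower at an unadjusted p under 0.05, 0 without het replicate 1 or without wild-type replicate 1, and 1 with a sex term or with only the compared groups in the fit; the E proteins Tcf4 and Tcf12 were at 110.1 and 123 against 368, 119 and 216 CPM (−1.0, adjusted p = 0.309) and 46.6 and 56.3 against 119, 58.3 and 74.7 CPM (−0.71, adjusted p = 0.392), and Hand1 at 0.99.

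In edgeR with all libraries no corepressor gene passed the adjusted threshold. Over all genes, 7.42% were lower at an unadjusted p under 0.05. Of 18 genes of LSD1-CoREST-HDAC complexes and other Runx1t1-binding corepressors, 3 were lower and none higher at an unadjusted p under 0.05, with a median of −0.17. The count was 1 without het replicate 1 or without wild-type replicate 1, and 6 with a depth term. Gps2, a subunit of a corepressor complex with Hdac3, was at 22.5 and 22.7 CPM against 45.8, 37.5 and 35.4 CPM (log2 fold change −0.81 ± 0.22 (SE), adjusted p = 0.271), Hdac3 at 37.8 and 39.5 CPM against 58.1, 50.3 and 42.3 CPM (−0.38, adjusted p = 0.384) and the abundant Hdac2 at −0.49. Of 7 listed genes, which were the Runx1t1 family, the Runx genes and Cbfb, Runx1t1 itself was the 1 with an unadjusted p under 0.05. Its paralog Cbfa2t2 had a log2 fold change of −0.20, adjusted p = 0.709, Cbfa2t3 of 0.20, adjusted p = 0.945 and the Runx partner Cbfb of 0.07, adjusted p = 0.952.

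Of 37 targets of Myc proteins, 33 were below 0, 17 were lower and 1 was higher at an unadjusted p under 0.05, and the median was −0.74 (−0.40 without wild-type replicate 1). Without overlap, 5 were lower, a share close to the 13.9% of all genes, and 2 were higher. Cdk4, the cyclin D kinase, was at 23.2 and 38.2 CPM against 157, 36.8 and 84.01 CPM (log2 fold change −1.59 ± 0.50 (SE), adjusted p = 0.300). Fbl, fibrillarin of the nucleolus, was at 17.5 and 24.5 CPM against 79.5, 26.1 and 51.1 CPM (−1.31 ± 0.48 (SE), adjusted p = 0.339). Npm1, nucleophosmin, had a log2 fold change of −0.92, adjusted p = 0.390 and the translation factor Eif4a1 of −0.77, adjusted p = 0.348. Ldha, lactate dehydrogenase, was the 1 higher member, at 328 and 246 CPM against 174, 211 and 199 CPM (0.56, adjusted p = 0.393). In Cdk4 wild-type replicate 3 lay between both het-labelled values, and the count of lower members was 0 of 37 without het replicate 1, 1 without wild-type replicate 1, 9 without wild-type replicate 4 and 26 without wild-type replicate 3. It was 2 with only the compared groups in the fit, 6 with limma on log2(TPM + 1) and 11 with a sex term. Of 13 genes of the Myc, Max and Mxd network 1, Mxd3, was lower at an unadjusted p under 0.05 (−2.17, adjusted p = 0.350); Mycl was at −1.92 and Max at −0.28. RNA of the transgene, a human gene, was not analysed here because the table holds mouse genes. In the polycomb repressive complex 2 list, 3 of 11 were lower, with the methyltransferase Ezh2 at 12.7 and 27.9 CPM against 112, 20.5 and 59.9 CPM (−1.65, adjusted p = 0.339) and Jarid2 at −0.59, adjusted p = 0.376, and 1 was higher, Phf1 at 47.6 and 42.1 CPM against 16.7, 29.8 and 23.4 CPM (0.94, adjusted p = 0.267). The 3 became 0 without het replicate 1, without wild-type replicate 1 or with only the compared groups in the fit, and 6 without wild-type replicate 3.

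Cell division genes had the lowest medians of the pathway lists and the widest spread among the wild-type-labelled ganglia. Of 25 mitotic kinase and spindle genes all were below 0 and 13 were lower at an unadjusted p under 0.05, with a median of −2.12, yet 1 was lower without overlap, against 13.9% of all genes. Summed, these genes came to 201 and 535 TPM in the het-labelled ganglia and to 2310, 272 and 1170 TPM in wild-type replicates 1, 3 and 4. Wild-type replicate 3 thus lay between the 2 het-labelled ganglia. Mki67, the proliferation antigen, was at 54.4 and 272 CPM against 1649, 77.9 and 611 CPM (log2 fold change −2.25 ± 1.16 (SE), adjusted p = 0.434). Bub3, of the spindle checkpoint, was the member without overlap, at 48.4 and 55.9 CPM against 119.7, 60.8 and 103 CPM (−0.86 ± 0.30 (SE), adjusted p = 0.327). Kif20a, a kinesin of cytokinesis, was at 5.42 and 15.05 CPM against 104, 11.1 and 43.2 CPM (−2.36, adjusted p = 0.316).

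DNA replication genes behaved in the same way, with all 27 below 0, 14 lower at an unadjusted p under 0.05 and a median of −1.81. Pcna, the sliding clamp, was at 15.9 and 23.8 CPM against 89.4, 20.3 and 60.3 CPM (log2 fold change −1.51 ± 0.51 (SE), adjusted p = 0.320). Mcm7, of the replicative helicase, was at 18.9 and 42.6 CPM against 250.1, 21.5 and 119.6 CPM (−2.08 ± 0.84 (SE), adjusted p = 0.362). Without overlap, 3 of the 27 were lower, no larger a share than the 13.9% of all genes, among them Gins4 and the clamp loader subunit Rfc3 (−0.93, adjusted p = 0.271 and −1.59, adjusted p = 0.300). In the Seurat lists, 19 of 43 S-phase genes (median −1.66; Tipin −1.74) and 21 of 52 G2 and M genes (median −1.98; Cdk1 −2.50, Anln −1.46) were lower at an unadjusted p under 0.05, and none was higher. Without overlap, 3 of the 43 S-phase genes were lower and none higher, and of the 52 G2 and M genes 1 was lower and 2 were higher. These lists share members with each other and with the 2 lists above.

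The counts of the division lists turned on single ganglia. Without wild-type replicate 1, which held the highest levels, 0 of the 25 mitotic and 2 of the 27 replication genes were lower at an unadjusted p under 0.05, and without het replicate 1 the numbers were 0 and 2. Without wild-type replicate 3 they were 25 and 24, and 1 and 7 of them passed the adjusted threshold. With only the compared groups in the fit they were 1 and 2, with limma 5 and 7, with a depth term or the replicate block 25 and 25, and without transgene-free wild-type replicate 2 they were 24 and 23. When 1 MYCN ganglion was left out, the medians ran from −3.44 to −1.06 in the mitotic and from −2.31 to −1.03 in the replication list. The numbers over all genes moved too: 1236 of 16665 were lower at that p with all ganglia, 2149 of 16638 without wild-type replicate 3, 563 of 16646 without wild-type replicate 1 and 221 of 17384 without het replicate 1. Without wild-type replicate 3, 320 genes passed over all genes, 84 higher and 236 lower, and 114 of the 320 were also called by DESeq2 with all libraries.

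**Figure D4:**
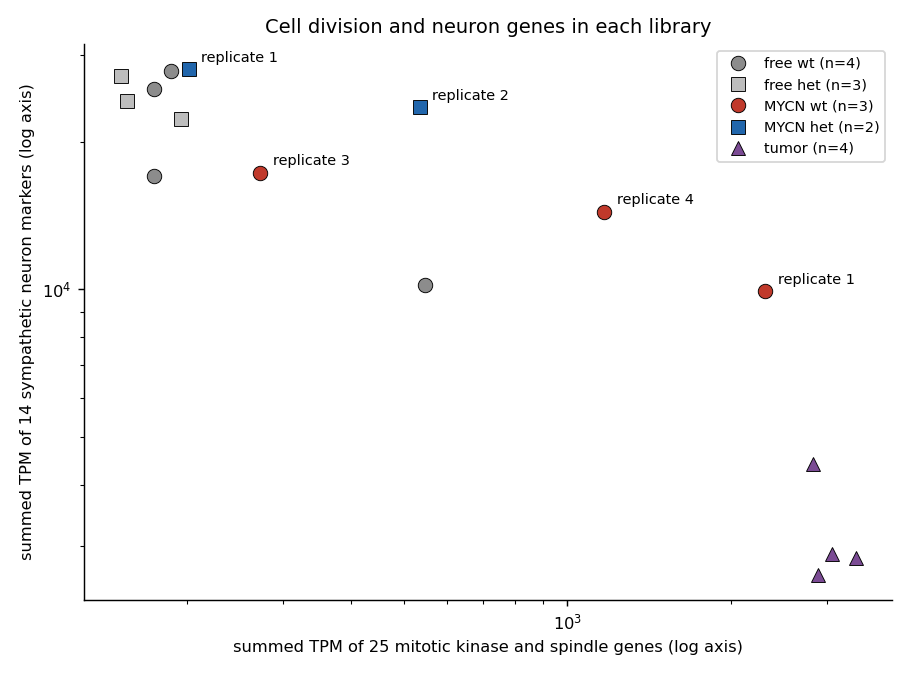
Summed TPM of 14 sympathetic neuron markers (y, log axis) against that of 25 mitotic kinase and spindle genes (x, log axis) in all 16 libraries, with the replicate number beside the MYCN ganglia. Wild-type replicate 3 lies between the het-labelled ganglia on the mitotic axis (272 against 201 and 535 TPM) but below both on the neuron axis (17300 against 28100 and 23500 TPM).

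How wild-type replicate 3 sat between the groups differed among genes. On log2(CPM + 1) it was nearer to the mean of the het-labelled ganglia than to the mean of wild-type replicates 1 and 4 in 10653 of 16665 genes (63.9%), and the matching numbers for wild-type replicates 1 and 4 were 40.2% and 31.7%. It was nearer to the het-labelled mean in 25 of 25 mitotic, 26 of 27 replication, 32 of 37 Myc target and 23 of 28 neuroblast genes. Among the neuronal lists this held for 8 of 14 sympathetic neuron markers, 9 of 15 catecholamine genes, 13 of 23 axonal cytoskeleton genes, 11 of 27 synaptic vesicle genes and 5 of 17 neuropeptide genes. Among markers of other cells it held for 14 of 14 glial, 10 of 10 fibroblast, 10 of 10 endothelial, 10 of 10 macrophage and 7 of 7 liver markers, 4 of 8 fat markers and 0 of 8 skeletal muscle markers. Wild-type replicate 1 was likewise nearer in 11 of 14 glial, 9 of 10 endothelial, 7 of 7 liver and 8 of 8 fat markers. Wild-type replicate 4 was so in 7 of 10 fibroblast and 6 of 7 liver markers, and both were in 1 of 10 macrophage markers. In 10 of 10 endothelial markers het replicate 2 was nearer to the wild-type-labelled mean, and in 9 of 10 het replicate 1 was. Het replicate 2 was nearer to the wild-type-labelled mean than to het replicate 1 in 43.6% of all genes, in 24 of 25 mitotic, 17 of 27 replication and 1 of 27 synaptic vesicle genes, and het replicate 1 was nearer to that mean than to het replicate 2 in 32.4% of all genes. These are counts over genes of single libraries and have no test.

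Antigen presentation, Notch and activity genes were examined as well. All 16 genes of MHC class I presentation were above 0, 2 of them at an unadjusted p under 0.05, with a median of 0.38; the loading factor Tapbp was at 120.0 and 84.3 CPM against 40.5, 73.7 and 55.7 CPM (log2 fold change 0.85, adjusted p = 0.391) and the chaperone Canx at 0.38, adjusted p = 0.383. Without het replicate 1 the median of this list was −0.05. None of 16 Notch genes had an unadjusted p under 0.05 in either direction (median −0.33), with the receptor Notch1 at 0.29 and the ligand Dll1 at −1.72. Of 12 immediate early genes, Arc was the 1 higher (19.6 and 13.9 CPM against 5.14, 1.72 and 4.52 CPM; 2.15, adjusted p = 0.281) and Jun the 1 lower (119 and 138 CPM against 177, 173 and 159.9 CPM; −0.40, adjusted p = 0.390).

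Markers of other cells that a dissected ganglion can hold were measured beside these results. None of the 14 glial, 10 fibroblast, 10 endothelial, 9 pericyte, 10 macrophage, 11 lymphocyte, 6 erythroid, 6 adrenal cortex and 7 liver markers tested had an unadjusted p under 0.05, and 1 of 6 chromaffin markers did, on the higher side. All 11 lymphocyte markers were below 0 (median −2.12, 2 lower without overlap), as were all 6 erythroid (−1.69) and 9 of 10 macrophage markers (−0.59). Over all genes, 13.9% were lower and 16.5% higher without overlap. Lymphocyte markers summed to 6.2 and 4.89 TPM against 12.8, 6.65 and 13.4 TPM. The macrophage sums were 127 and 118 against 262, 101 and 174 TPM. With the replicate block 2 lymphocyte markers and 1 macrophage marker were lower at an unadjusted p under 0.05, and the erythroid median was 0.40. Glial markers summed to 8140 and 5750 TPM in the het-labelled and to 3910, 8150 and 6810 TPM in the wild-type-labelled ganglia, with Apoe at 0.07 and Fabp7 at −0.21 on the log2 scale. Of the skeletal muscle markers 6 of 8 were lower at an unadjusted p under 0.05, 7 were lower without overlap and the median was −3.40, at sums of 13.3 and 20.1 TPM against 33.4, 234 and 157 TPM. The count was 1 without het replicate 1, 2 without wild-type replicate 3, 3 without het replicate 2, and 2 with a depth term and 3 with the replicate block, where the medians were −1.64 and −1.71. Acta1, muscle actin, was at 2.25 and 2.86 CPM against 6.70, 37.3 and 28.4 CPM (−3.24, adjusted p = 0.309) and Mylpf at 0 and 0.309 CPM against 0.917, 3.55 and 3.77 CPM (−4.15, adjusted p = 0.285). Fat markers summed to 381 and 226 TPM in the het-labelled and to 121, 3660 and 370 TPM in the wild-type-labelled ganglia, wild-type replicate 3 being the high one, and 2 of 8 were lower at an unadjusted p under 0.05 (Cidec −3.52, Plin1 −2.76). The fat count was 6 without wild-type replicate 1, and 0 without wild-type replicate 3 (median −2.57 with and −0.10 without it), without het replicate 1 or het replicate 2, with a depth term and with the replicate block. Liver markers reached 422 TPM in wild-type replicate 4 and 18.2 to 45.2 TPM in the other 4 ganglia. Adrenal cortex markers summed to 63.8 and 16.1 against 8.81, 15.7 and 7.90 TPM, led by Cyp21a1 (3.13, adjusted p = 0.447). All 6 of them were above 0 with a median of 2.61, and 4 were higher without overlap. With the replicate block 5 were higher at an unadjusted p under 0.05, and with a depth term 3 were. The median was 0.99 without het replicate 1, 3.65 without wild-type replicate 3 and 4.43 with the replicate block. Of 4 pancreas markers Cpb1, at 0 in the wild-type-labelled libraries and at 0.563 and 0.232 CPM in the het-labelled ones, was higher at an unadjusted p under 0.05. The part of these cells in the neuron and division results was not tested.

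The 61 other genes tested within 10 Mb of Runx1t1 on chromosome 4 were looked at because a crossed-in allele brings flanking sequence of its strain of origin. Of these, 2 were higher and 3 lower at an unadjusted p under 0.05, and the median was −0.06. Tmem64 was at 156 and 115 CPM against 56.6, 83.4 and 59.7 CPM (log2 fold change 1.02 ± 0.23 (SE), adjusted p = 0.215), the vesicle GTPase Rab2a at 0.60, the cyclin Ccne2 at −0.89 and Rbm12b2 at −0.80.

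The genes whose pattern over the 12 ganglia was most like that of Runx1t1, by Pearson correlation of log2(CPM + 1) among 14270 genes, were Agtr2 (r = 0.984), Nfe2l3, 9430076C15Rik, Fut9 and Glt28d2. The 12 points share 4 genotype groups, and the levels were highest in wild-type replicates 1 and 4 of the MYCN ganglia. Agtr2, the angiotensin type 2 receptor, was at 11.2 and 36.8 CPM in the het-labelled and 202, 8.24 and 96.4 CPM in the wild-type-labelled ganglia, Nfe2l3, a bZIP transcription factor, at 11.7 and 41.8 against 288, 9.92 and 99.7 CPM, and Fut9, a fucosyltransferase, at 1.34 and 3.01 against 28.4, 0.954 and 12.9 CPM. In all 3, as in Runx1t1, wild-type replicate 3 was below both het-labelled ganglia, which follows from choosing genes for their likeness over the same libraries. Their log2 fold changes were −2.09, −2.31 and −2.69 (adjusted p = 0.376, 0.401 and 0.319).

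The same Runx1t1 genotypes without the transgene served as background. There, 3 het-labelled against 4 wild-type ganglia gave no gene past the adjusted threshold in edgeR and 687 genes (4.12%) at an unadjusted p under 0.05. The difference between both differences was tested as an interaction. By edgeR no gene passed, 937 had an unadjusted p under 0.05, and the smallest adjusted p was 0.129, for Tmed8. DESeq2 called 31 genes, 9 of the 10 leading higher genes and 3 of the 10 leading lower genes among them. The leading genes were chosen for the difference between the MYCN groups, which enters this interaction, so their number here is partly fixed by the choice. Of the 31, 3 had log2 values beyond 15 in size. The medians of the lists in the transgene-free comparison, which shares no library with the MYCN comparison, were 0.16 for the catecholamine, 0.29 for the synaptic vesicle and 0.28 for the neuroblast genes, and −1.19 for the mitotic and −0.56 for the replication genes. Transgene-free wild-type replicate 2 held 547 TPM of mitotic and 686 TPM of replication genes against 151 to 195 and 233 to 268 TPM in the other 6 transgene-free ganglia, and 1370 TPM of lymphocyte markers against 5.35 to 16.1 TPM, and the part of this library in those medians was not tested. Left out of the fit, this ganglion changed the number of genes that passed in the MYCN comparison from 2 to 1 (Tmed8; Plxnc1 had an adjusted p of 0.0585), an alternative chosen after the data were seen.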

How the data were processed

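RNA of 16 libraries (12 celiac ganglia and 4 tumors) was sequenced from a stranded total RNA kit, and the deposited gene tables hold expected counts and TPM (length-corrected transcript levels) that the authors made with RSEM. The submitters' processing notes also name STAR, SAMtools and the mouse build mm10. The study's methods state the versions of these tools, while the strand setting of counting is not given in the sources used here. Near-identical paralogs and overlapping genes are therefore uncertain. Expected counts were rounded to whole numbers, because 6.05% of the values were not whole, and every library was mapped by its title (0 columns unmapped). Genes were filtered with filterByExpr (16665 of 24411 tested), scaled by TMM, and tested in edgeR 4.0.16 (R 4.3.3) by the quasi-likelihood test with all 5 groups in 1 fit, the spread being shared among them, with Benjamini-Hochberg adjustment over all tested genes at 0.05. The standard error is the absolute log2 fold change divided by the square root of the F statistic. Levels are CPM on TMM-scaled libraries, and list sums use the authors' TPM. Positions are those of GENCODE vM21 (GRCm38), where 15957 genes had a single position.

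Genes were named by 1 rule: those past the adjusted threshold, the 10 higher and 10 lower genes with the smallest p among genes of at least 1 CPM without overlap between groups, Runx1t1, the 5 genes most like it over 12 ganglia, and in each list the 2 most abundant genes per length and the 2 with the smallest p in each direction. Some genes that this rule names are not reported here. The S and G2/M lists are those of Seurat 5.3.0. The comparison, the lists and the tests were chosen with earlier results of these data known, so no p adjusted over a list alone is given. Alternatives were upper-quartile scaling, no filter, at least 10 counts in every library, DESeq2 1.42.0, a fit of the compared groups alone or of the 12 ganglia, a replicate block, terms for depth and sex, removal of Rn45s, a minimum log2 fold change of 1, limma 3.58.1 on log2(TPM + 1), and leaving out each ganglion. Tested on simulated data for this comparison, with 16435 genes and 200 changed, the fit recovered 12% of genes changed by 1 and 55% of those changed by 2 on the log2 scale. The simulation gave 2 false calls. Total counts ran from 10692299 to 38618757 per library, and the 2 and 3 ganglia of the compared groups limit the precision.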

Additional observations from a re-analysis of the deposited data

Results flagged for a closer look

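Values that stood apart were looked for in 25 groups of 4 libraries, where chance flags about 1 in 20 groups, and 4 were found. Plxnc1 was at 12.7 CPM in 1 tumor, farther from the other 3 than they were from each other. The summed sympathetic neuron markers reached 4400 TPM in 1 tumor. In transgene-free wild-type replicate 2 the lymphocyte markers summed to 1370 TPM and the mitotic genes to 547 TPM, each far above the other 3 ganglia of that group. None of these 4 values belongs to a MYCN ganglion, and groups of 2 and 3 libraries were not looked at in this way.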

How the results depend on the processing

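The number of genes past the adjusted threshold, 2 in edgeR, was 1 with upper-quartile scaling, with no filter, without Rn45s and with the replicate block, 0 with only the compared groups, with a depth term, with a sex term and with a minimum log2 fold change of 1, 4 with at least 10 counts in every library, 6 without the tumors, 16 with limma on log2(TPM + 1) and 264 with DESeq2. Leaving out 1 MYCN ganglion gave 0 to 320, the 320 without wild-type replicate 3, and leaving out transgene-free wild-type replicate 2, chosen after the data were seen, gave 1. The replicate block kept neither Tmed8 nor Plxnc1; the MYCN groups share replicate number 1 alone, and that pair deviated in opposite directions (correlation −0.49). Of genes at an unadjusted p under 0.05, 41.0% were higher, against 67.0% with limma (which moved the median of all genes by 0.132), 57.3% with only the compared groups and 33.1% with a depth term. Of the 264 genes that DESeq2 called, 4 had log2 fold changes beyond 15 in size. For the interaction DESeq2 called 31 genes, 3 of them with log2 values beyond 15 in size, and the other alternatives called 0. The log2 fold change of Runx1t1 was −2.31 to −0.84 when 1 ganglion was left out, and −2.23, past the threshold, without wild-type replicate 3. The median of the pancreas markers, 1.68, was −0.93 (without het replicate 1) to 3.81 (without wild-type replicate 3) when 1 ganglion was left out, and that of the liver markers, −2.46, was 0.51 with the replicate block and −4.20 (without het replicate 1) to 0.25 (without wild-type replicate 4) when 1 was left out. The causes were not tested. In edgeR with all 5 ganglia no gene of the cell division lists passed the adjusted threshold, whereas DESeq2 called 1 of the 27 replication genes, 2 of the 43 S-phase genes and 1 of the 52 G2 and M genes.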
